A study of Arabidopsis thaliana with 18 samples.

Results

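The 10 genes described here encode H3K27 demethylases and factors grouped with the trithorax type in Arabidopsis thaliana. Most of them are known to oppose Polycomb silencing, and for PKL both roles are described below. They were chosen by gene ID from what the gene products are known to do. They were the H3K27 demethylases REF6 (AT3G48430), ELF6 (AT5G04240) and JMJ13 (AT5G46910), JMJ30 (AT3G20810) and JMJ32 (AT3G45880), the trithorax-type histone methyltransferases ATX1 (AT2G31650), ATX2 (AT1G05830) and SDG8 (AT1G77300), the trithorax-group factor ULT1 (AT4G28190) and the chromatin remodeller PKL (AT2G25170). All 10 were found among the 32992 genes with 1 mRNA value per library, and 9 of them were among the 17819 genes that passed the filter on low values (at least 1 RPKM in at least 3 libraries). JMJ32 did not pass, since none of its 9 values reached 1 RPKM.

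Shoots of 14-day-old seedlings of the accessions Col and C24 and of their F1 hybrid were raised on plates of Murashige and Skoog medium holding 1% sucrose, in short days (8 h in light at 22 °C, then 16 h of darkness kept at 18 °C). The 9 mRNA libraries all come from clf mutants, 3 from Col clf, 3 from C24 clf and 3 from the cross of these mutants (clf F1). The 9 H3K27me3 peak lists comprise replicates 1 and 2 of each wild-type genotype (Col, C24, F1) and a single list for each clf genotype. Col clf carries a T-DNA insertion in CLF and C24 clf an EMS-induced point mutation that changes the SET domain, so accession and allele cannot be told apart, and every mRNA group lacks normal CLF. Wild-type mRNA was not analysed here.

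Trimethylation of histone H3 at lysine 27 is written by Polycomb repressive complex 2, in which CLF and SWN are the catalytic subunits in seedlings, and it accompanies stable silencing. JmjC-domain demethylases such as REF6 remove the mark. Trithorax-type proteins favour transcription of many of the same genes: ATX1 and ATX2 methylate lysine 4 of histone H3, SDG8 methylates lysine 36, and ULT1, a SAND-domain protein, acts with ATX1 at floral homeotic genes. PKL is a CHD3-type remodeller that is grouped with the trithorax factors, although many H3K27me3 genes are derepressed in pkl mutants.

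RPKM values, which divide reads by the length of the gene and by the reads of the library, allow levels to be compared between genes. The files hold no counts, and steps in the low values corresponded to 14.8 to 24.1 M reads per library. CLF itself, a check of the labels, was at 1.21, 0.99 and 1.37 RPKM in Col clf, 7.20, 7.14 and 8.35 RPKM in C24 clf and 4.35, 3.93 and 4.08 RPKM in clf F1, so the library levels followed the alleles. The median log2 difference over all tested genes was 0.13 for C24 clf against Col clf and -0.18 for clf F1 against C24 clf, and quantile normalization brought both close to 0 (0.0057 and -0.016). It also changed the split of called genes for C24 clf against Col clf from 5675 higher and 2260 lower to 3833 and 3624, so changes are read beside these medians. A rRNA gene, a sign of how well rRNA was removed, was at 365, 206 and 122 RPKM in C24 clf, against 2148 to 17796 in Col clf and 1363 to 16022 in clf F1, and the summed RPKM was also lowest in the 3 C24 clf libraries. Differences of C24 clf from the other groups and these library properties cannot be told apart by the design. The fit without the 3 libraries richest in rRNA stands beside the calls, but it keeps only 1 clf F1 library. The root marker list, for tissue that shoots should lack, held PYK10, which is also made in seedling shoots, at a mean of 102 RPKM in Col clf, 213 in C24 clf and 141 in clf F1, while COBL9 and PLT1 were listed at 0 in all libraries, EXPA7 reached 0.05 RPKM in 1, and CASP1 and WOX5 stayed below 1 RPKM. The summed level of the 6 markers was 95.4 to 108 RPKM in Col clf, 211 to 218 in C24 clf and 132 to 149 in clf F1, and the part of other tissue in the differences below was not tested. In whole shoots, fewer cells that express a gene and less mRNA per cell cannot be told apart. Reads were mapped to the Col genome, so a lower value in C24 clf cannot be told apart from reads lost to sequence differences.

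The genes spanned a wide range of levels, and the order of their means was the same in the 3 groups except that ATX2 stood above ULT1 in Col clf. PKL had the highest mean over the 9 libraries, 23.3 RPKM, which lay at percentile 73.3 of the tested genes. ULT1 (11.4 RPKM), ATX2 (11.3), SDG8 (8.07), ELF6 (7.65) and REF6 (7.32) formed a middle band between percentiles 39.0 and 52.4. ATX1 (3.24 RPKM), JMJ13 (2.64), JMJ30 (1.28) and JMJ32 (0.687) were low. Within the middle band ULT1 and ATX2, and likewise SDG8, ELF6 and REF6, overlapped over the 9 libraries, as did ATX1 and JMJ13 and the lowest ULT1 and highest SDG8 libraries, so the order of these neighbours is not fixed.

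**Figure D1:**
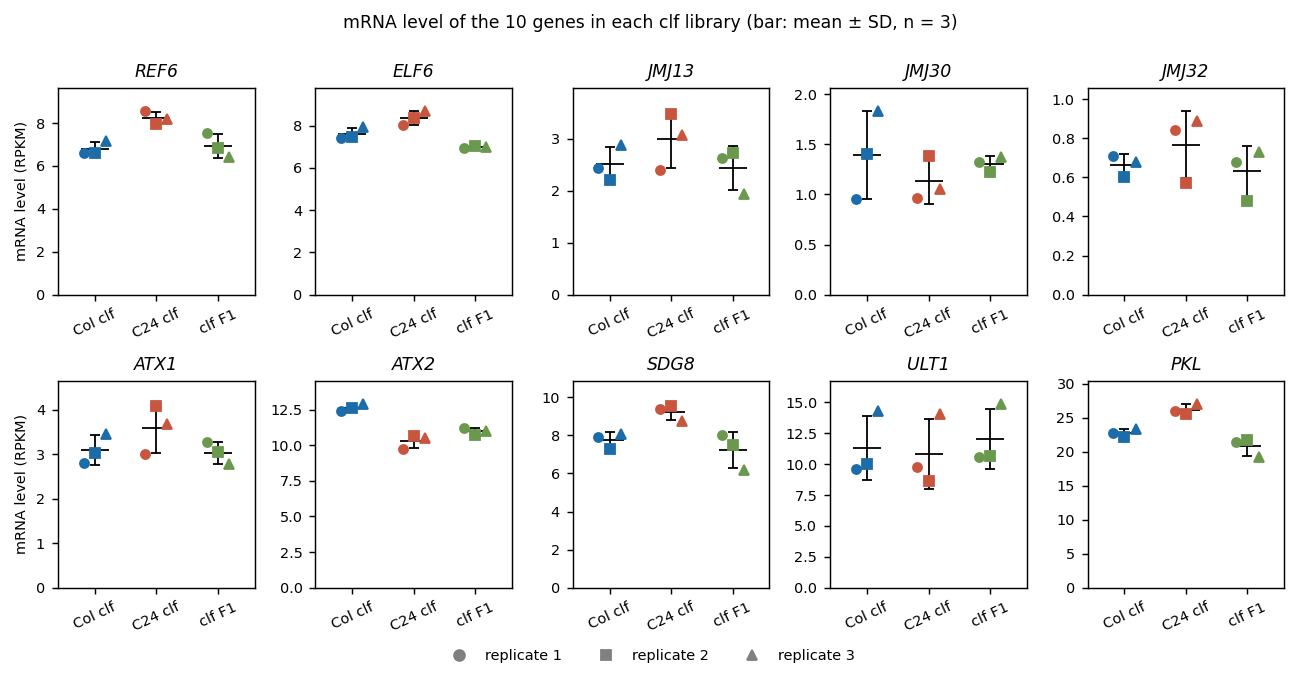
mRNA level in RPKM of each of the 10 genes in each library, by group (Col clf, C24 clf, then clf F1); symbols give the replicate number, and black bars the mean ± SD (n = 3). All Col clf libraries lie above the others for ATX2, and all C24 clf libraries do for REF6, ELF6, SDG8 and PKL. ULT1 is highest in replicate 3 of every group.

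Among the demethylases, REF6, a zinc-finger protein that recognises DNA directly and removes H3K27me3 at many developmental genes, was at 6.62, 6.62 and 7.17 RPKM in Col clf, 8.56, 7.94 and 8.17 in C24 clf and 7.52, 6.84 and 6.40 in clf F1. All C24 clf libraries lay above all others, and the Col clf and clf F1 libraries overlapped. ELF6, its close relative with a role in flowering time and in resetting FLC during reproduction, was at 7.41, 7.45 and 7.96 RPKM in Col clf, 8.03, 8.38 and 8.69 in C24 clf and 6.93, 7.02 and 7.01 in clf F1. The 3 groups of ELF6 did not overlap, with clf F1 lowest. ELF6 was 1.118 ± 0.0077 times REF6 in Col clf, 1.02 ± 0.070 times in C24 clf and 1.01 ± 0.088 times in clf F1 (SD, n = 3), so the pair was expressed at nearly equal levels.

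JMJ13, a demethylase known for its part in flowering and self-fertility, was at 2.50 ± 0.34 RPKM in Col clf, 2.98 ± 0.55 in C24 clf and 2.43 ± 0.42 in clf F1 (SD, n = 3). The groups overlapped, as they did for JMJ30 and JMJ32. JMJ30, which follows the circadian clock and acts with JMJ32 on FLC at warm temperature, was at 1.39 ± 0.44, 1.13 ± 0.22 and 1.30 ± 0.076 RPKM. JMJ32 ranged from 0.48 to 0.89 RPKM. At these levels the scale log2(RPKM + 1), on which all tests were run, understates differences.

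In C24 clf against Col clf, with limma and Benjamini-Hochberg adjustment over all 17819 genes, REF6 was higher by 0.24 (log2, SE 0.081, adjusted p = 0.0302, 1.18-fold in RPKM + 1, 3 of 3 libraries above Col clf). ELF6 (0.12, 95% interval -0.036 to 0.28, adjusted p = 0.191), JMJ13 (0.18, -0.11 to 0.47, adjusted p = 0.289) and JMJ30 (-0.16, -0.46 to 0.15, adjusted p = 0.383) did not pass. The REF6 call rested on little: it passed in 11 of 17 alternatives and ended under quantile normalization (0.093, adjusted p = 0.278) and without Col clf replicate 1 (0.0881) or 2 (0.083), without C24 clf replicate 1 (0.095) or 3 (0.065), and without the 3 libraries richest in rRNA (0.0738).

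ATX2 and ATX1 are paralogous SET-domain methyltransferases of the trithorax family. ATX2 was at 12.42, 12.59 and 12.89 RPKM in Col clf, 9.75, 10.68 and 10.48 in C24 clf and 11.21, 10.70 and 10.98 in clf F1. Every Col clf library was above every other library, and clf F1 lay just above C24 clf. ATX1 was at 2.80, 3.02 and 3.46 RPKM in Col clf, 3.0, 4.08 and 3.67 in C24 clf and 3.27, 3.05 and 2.77 in clf F1, with overlapping groups. ATX2 mRNA was therefore 4.44, 4.17 and 3.73 times that of ATX1 in the Col clf libraries, 3.25, 2.62 and 2.86 times in C24 clf and 3.43, 3.51 and 3.96 times in clf F1. The Col clf and C24 clf ratios did not overlap.

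ATX2 was lower in C24 clf than in Col clf (-0.27 on the log2 scale, SE 0.069, adjusted p = 0.00776 with limma), against a median of 0.13 over all tested genes. It passed in all 17 alternatives, with differences from -0.40 to -0.24 and adjusted p from 4.43e-04 to 0.0357, and the difference was widest, -0.40, under quantile normalization. ATX1 did not pass (0.16, 95% interval -0.082 to 0.40, adjusted p = 0.262; -0.0017 under quantile normalization).

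SDG8, the main methyltransferase for di- and trimethylation of lysine 36 and needed for high FLC expression, was at 7.92, 7.28 and 8.05 RPKM in Col clf, 9.38, 9.56 and 8.77 in C24 clf and 8.02, 7.49 and 6.18 in clf F1. The C24 clf libraries lay above all others. Its difference between C24 clf and Col clf was 0.23 (SE 0.094, adjusted p = 0.0701), and it passed in 3 of 17 alternatives: with the replicate number as a block (adjusted p = 0.047), without clf F1 replicate 3 (0.0351) and with only the 2 groups in the fit (0.042). Under quantile normalization it was 0.09 (adjusted p = 0.382). PKL, the most abundant of the 10 mRNAs, was at 22.82, 22.14 and 23.40 RPKM in Col clf, 26.07, 25.59 and 27.04 in C24 clf and 21.43, 21.75 and 19.19 in clf F1. Its 3 groups did not overlap, with C24 clf highest and clf F1 lowest. It was higher in C24 clf than in Col clf by 0.20 (SE 0.070, adjusted p = 0.0394, 1.14-fold in RPKM + 1), a call that ended on leaving out any 1 of the 6 libraries compared (adjusted p from 0.0554 to 0.121), under quantile normalization (0.064, adjusted p = 0.394), without the libraries richest in rRNA (0.082) and with no trend in the prior (0.0513).

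Thus 3 of the 9 tested genes were called in C24 clf against Col clf, REF6 and PKL higher and ATX2 lower. Over all tested genes 31.8% were called higher and 12.7% lower in the same comparison, so these counts lie near the background. The median difference of the 9 genes was 0.16, beside 0.13 over all tested genes. The direction of ATX2 was against both medians.

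**Figure D2:**
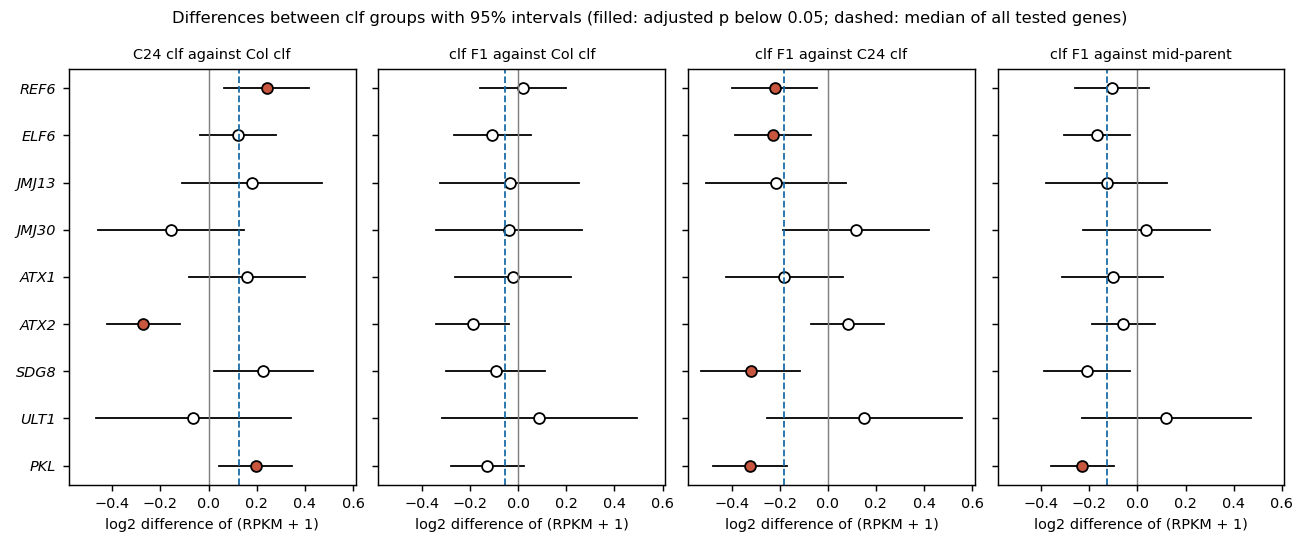
log2 difference of (RPKM + 1) with its 95% interval for the 9 tested genes in 4 comparisons; filled points have an adjusted p below 0.05, and the dashed line is the median of all tested genes. In C24 clf against Col clf ATX2 lies at -0.27 on the other side of 0 from the median of 0.13, while in clf F1 against C24 clf the 4 filled points lie between -0.32 and -0.22, beside a median of -0.18.

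The hybrid comparisons asked how the F1 of the mutants stood to its parents. Against Col clf, 0 of 9 genes were called, beside 4.98% called higher and 7.03% called lower over all tested genes. ATX2 alone had an unadjusted p below 0.05 (-0.19, SE 0.069, adjusted p = 0.11 with limma). Against C24 clf, 4 of the 9 were lower and 0 higher, beside 35.8% lower and 6.66% higher over all tested genes. They were PKL (-0.32, SE 0.070, adjusted p = 0.00442), SDG8 (-0.32, SE 0.094, adjusted p = 0.0189), ELF6 (-0.23, SE 0.072, adjusted p = 0.0254) and REF6 (-0.22, SE 0.081, adjusted p = 0.0456). For each of these 4 called genes, every clf F1 library lay below every C24 clf library. The share of all tested genes with this separation was not counted.

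Under quantile normalization, which removes the median shift of -0.18, none of these 4 passed (adjusted p from 0.0825 for PKL to 0.838 for REF6), while ATX2 passed as higher in clf F1 than in C24 clf (0.28, adjusted p = 0.00813). Without the 3 libraries richest in rRNA, 2 of which are clf F1 libraries, the 4 did not pass either. That fit keeps 1 clf F1 library, and the median over all tested genes was then -0.10. The lost calls therefore say little about these genes. Leaving out clf F1 replicate 3 ended the calls of SDG8 (-0.23, adjusted p = 0.0721), ELF6 (-0.23, 0.0573) and REF6 (-0.17, 0.146). The SDG8 call also ended without C24 clf replicate 1 (0.051) or 2 (0.0557), that of ELF6 without C24 clf replicate 2 (0.0622) or 3 (0.0855) or clf F1 replicate 2 (0.0687), and that of REF6 without any 1 library other than clf F1 replicate 1 (0.0522 to 0.146), with no filter (0.057) and with only the 2 groups in the fit (0.0691). REF6 passed in 5 of 17 alternatives, ELF6 in 11, SDG8 in 12 and PKL in 15. The comparisons share libraries, so the calls against C24 clf and those between the parents are not separate evidence.

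Against the arithmetic mean of both parents, 1 of 9 genes was called lower and 0 higher, beside 6.36% lower and 0.37% higher over all tested genes. It was PKL, at a mean of 20.8 ± 1.39 RPKM (SD, n = 3) in clf F1 against 22.8 ± 0.63 in Col clf and 26.2 ± 0.74 in C24 clf (-0.23, SE 0.060, adjusted p = 0.0462 with limma, beside a median of -0.12 over all tested genes). The call held in 5 of 17 alternatives, among them the replicate block (adjusted p = 0.0182), under which the calls over all tested genes went from 66 higher and 1133 lower to 287 and 4185. It ended under quantile normalization (-0.11, adjusted p = 0.254), with no filter (0.0555), with no trend in the prior (0.0552) and against the mean of the parents' logs (0.0532). It ended as well on leaving out any 1 of the libraries other than Col clf replicate 2 and clf F1 replicate 1 (adjusted p from 0.0714 to 0.203). The call was also lost without the libraries richest in rRNA (-0.19), a fit that keeps 1 clf F1 library. PKL and ELF6 were the 2 genes whose clf F1 libraries all lay below those of both parents. Neither passed against Col clf with limma (PKL -0.13, adjusted p = 0.283, and ELF6 -0.11, adjusted p = 0.395). The share of all tested genes with this order was not counted. Over all tested genes the median of clf F1 also lay below both parents (-0.055 against Col clf and -0.18 against C24 clf).

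The values of ULT1 fell apart by replicate number rather than by group. It was at 9.60, 10.03 and 14.32 RPKM in Col clf, 9.80, 8.67 and 14.03 in C24 clf and 10.61, 10.66 and 14.87 in clf F1. In every group the library numbered 3 was the high one, and all 3 of these lay above the other 6 libraries, whose highest value was 10.66 RPKM. The group differences did not pass (C24 clf against Col clf -0.063, 95% interval -0.47 to 0.34, adjusted p = 0.806), and with the replicate number as a block the SE fell from 0.19 to 0.071 with adjusted p = 0.474.

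The libraries numbered 3 exceeded those numbered 1 and 2 in ULT1 by 0.50 (SE 0.064, adjusted p = 0.0182 with limma, 1.42-fold in RPKM + 1, means of 14.4 and 9.90 RPKM), a comparison chosen after its values were seen. ULT1 was the 1 of 9 tested genes called higher, beside 0.269% of all tested genes (48 genes). The difference ranged from 0.48 to 0.55 over the alternatives. The call ended with no filter on low values (adjusted p = 0.0768), without the libraries richest in rRNA (0.183) and on leaving out Col clf (0.219), C24 clf (0.125) or clf F1 (0.17) replicate 3. The labels do not say what a replicate number stands for. Of the other 8 genes, JMJ30 had the widest difference in the same direction (0.12, adjusted p = 0.77) and SDG8 the widest in the other (-0.10, adjusted p = 0.691).

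ULT1 was also the gene of the 10 that carried H3K27me3 peaks in most lists. Peaks over its gene body stood in 6 of the 9 lists: wild-type Col, C24 and F1 replicate 1 and all 3 clf lists. Wild-type replicate 2 of Col, C24 and F1 had none there. The peak calls, tag numbers, scores and folds are the authors' own, and the positions (build TAIR10) are those of their lists. Genes were placed with a table of the TAIR10.1 assembly, whose own coordinates are not printed.

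In wild-type Col replicate 1 the ULT1 peak lay at chr4:13985256-13987408, covered 76.5% of the gene and had 663 tags and a fold enrichment of 3.06. In wild-type C24 replicate 1 it lay at chr4:13985293-13987138, with 343 tags and a fold of 4.28, and in wild-type F1 replicate 1 at chr4:13985202-13987301, with 635 tags and a fold of 4.64. In clf Col it lay at chr4:13985209-13987363 (587 tags, fold 5.02), in clf C24 at chr4:13985257-13987077 (278 tags, fold 4.77) and in clf F1 at chr4:13985264-13987373 (452 tags, fold 4.80). The 6 intervals nearly coincided, all lay inside the gene, and the C24 peaks were the shortest in both genotypes, 1846 and 1821 bp against 2100 to 2155 bp. Peaks were shorter in these C24 lists in general. In wild-type replicate 1 the median length was 2000 bp in C24, 2923 bp in Col and 2345.5 bp in F1. In clf it was 1563, 1739 and 1701 bp. Within its own list the fold of the ULT1 peak stood between percentiles 32.2 and 63.3. With 1 clf library each, and folds that are comparable only within a list, no change between wild type and clf can be read from them.

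**Figure D3:**
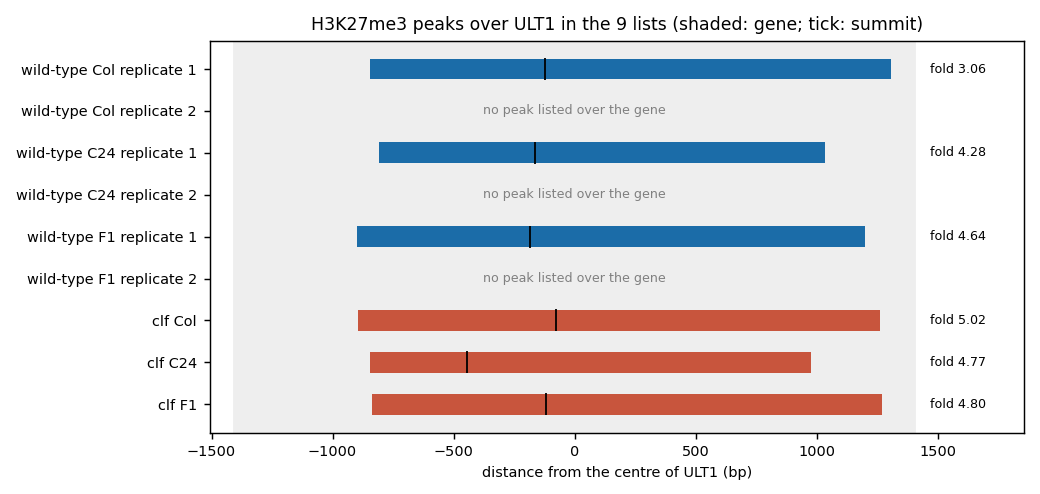
H3K27me3 peaks over ULT1 in each of the 9 lists, drawn by distance in bp from the centre of the gene (shaded); bars are the authors' peaks (blue wild type, red clf), black ticks their summits, and the authors' fold enrichment stands at the right. The 6 peaks have nearly the same ends, and the 3 wild-type replicate 2 lists have none.

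The share of all 27444 nuclear protein-coding genes with a peak was 24.2%, 23.8% and 24.4% in wild-type Col, C24 and F1 replicate 1, 9.13%, 19.3% and 14.5% in replicate 2, and 21.9%, 22.2% and 23.2% in clf Col, C24 and F1. The replicate 2 lists held weaker peaks: their median scores were 102, 87.0 and 125, against 443 to 624 in replicate 1. Of the replicate 1 peaks, 40.5%, 51.6% and 53.8% overlapped a replicate 2 peak in Col, C24 and F1, and 74.6%, 59.9% and 82.9% of the replicate 2 peaks overlapped one of replicate 1. A peak in each of the 6 lists that held one over ULT1 was found for 3700 genes (13.5%). The pattern of ULT1, a peak in those 6 lists and in none of the other 3, was shared by 729 genes (2.66%). A list without a peak does not show absence of the mark: AG, a known H3K27me3 gene, had a peak in 5 of 9 lists.

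ATX1 had a peak in wild-type C24 replicate 2 alone, at chr2:13460968-13462240. It covered 17.8% of the gene, with 148 tags, a score of 57.9 and a fold of 2.23, at percentile 0.111 of the folds in that list. A peak in that list alone was found for 1422 genes (5.18%), and a minimum score of 100 removed this one. The other 8 genes had no peak over the gene in any list, whereas 39.8% of all genes had a peak in at least 1. As a check of the peak placement, 12 of the 12 known targets on a list that includes FLC, AG, AP3, PI and FUS3 had a peak in at least 1 list. These 5, and FT, LEC1 and CUC1 on the same list, were already known to carry the mark, so this count is no contrast to the 8 genes.

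SDG8 had a peak close by in 4 of the 9 lists. In wild-type Col replicate 1 it lay at chr1:29049729-29051174, 275 bp from the gene, with a fold of 2.76 and a score of 138. Peaks there also stood in wild-type F1 replicate 1 (395 bp away, fold 2.53), clf Col (404 bp, fold 3.98) and clf F1 (321 bp, fold 3.87). No annotated gene lay under them. In wild-type Col replicate 2 and wild-type F1 replicate 2 the nearest peak to SDG8 was 34589 and 34453 bp away. In the C24 lists it was 19026 bp away in wild-type replicate 1, 29455 bp in wild-type replicate 2 and 34393 bp in clf C24, and lost reads at C24 sequence differences cannot be told apart from lack of the mark. PKL had its nearest peak 2038 to 2575 bp away in all 9 lists, over CYP82F1, a cytochrome P450 gene, and JMJ32 had its own 1795 to 2846 bp away, over CRK4, a receptor-like kinase gene. For REF6 the nearest peak was at least 18209 bp away, for JMJ30 6717 bp, for JMJ13 5460 bp, for ATX2 4851 bp and for ELF6 3986 bp.

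ULT1 was expressed above most genes with a peak. Among all 26691 genes its mean level stood at percentile 69.0 in Col clf, 66.0 in C24 clf and 71.2 in clf F1. Among genes with a peak in the matching clf list its mean level stood at percentile 89.0 in Col clf (5863 genes, median 0.09 RPKM), 87.8 in C24 clf (5936 genes, median 0.163 RPKM) and 89.4 in clf F1 (6204 genes, median 0.137 RPKM). Its paralog ULT2 had a peak in all 9 lists and was listed at 0 RPKM in all 9 mRNA libraries. Among the PKL paralogs, PKR1 had no peak in any list and a mean of 9.81 RPKM in Col clf, and PKR2 had a peak in 8 lists and at most 0.06 RPKM. JMJ15, a JmjC gene of the lysine 4 demethylase group, had a peak in 8 lists and at most 0.02 RPKM, whereas its relative JMJ18 had one in 7 lists and was at 4.06 to 5.65 RPKM.

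Over the 10 genes and 56 genes of related chromatin lists, 8 genes had a peak in 5 or more lists, and 5 of these had a mean below 1 RPKM. Of the 58 genes with a peak in 0 or 1 list, 1 had a mean below 1 RPKM, JMJ32. The 3 genes above 1 RPKM with peaks in 5 or more lists were ULT1, JMJ18 and EMF1, a Polycomb gene at 6.12 to 14.02 RPKM with a peak in all 9 lists. These are descriptions across genes that were chosen by function, with mRNA from clf mutants.

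**Figure D4:**
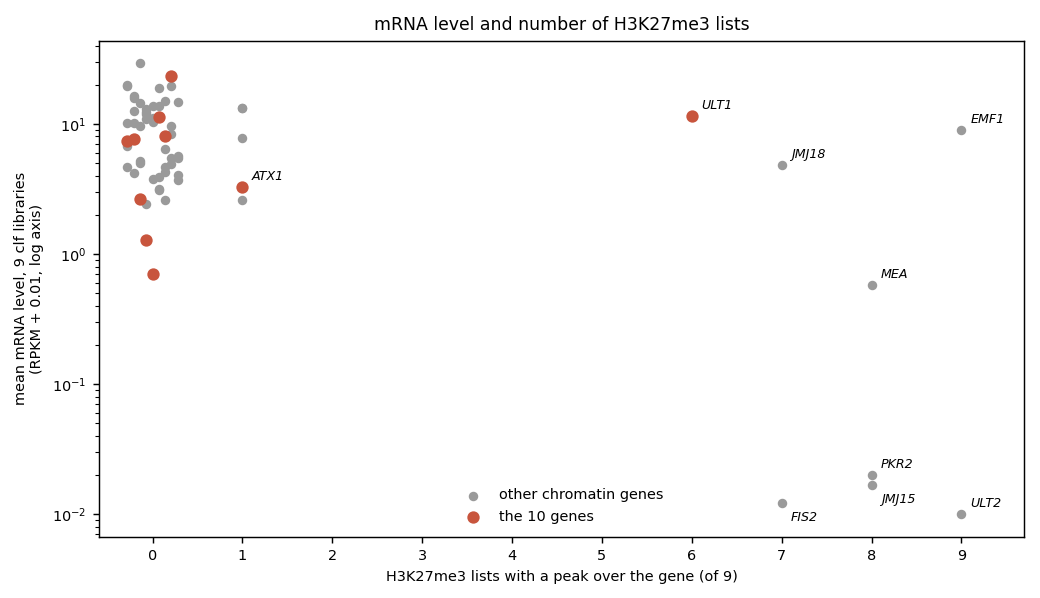
Mean mRNA level over the 9 clf libraries (RPKM + 0.01, log axis) against the number of H3K27me3 lists, of 9, with a peak over the gene, for the 10 genes (red) and 56 genes of related chromatin lists (grey; points at 0 lists are spread sideways). ULT1 (6 lists, 11.4 RPKM) lies with JMJ18 and EMF1 above 1 RPKM, while ULT2, PKR2, JMJ15 and FIS2 lie near 0.

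Partners and relatives of these genes were read beside the same background, 31.8% called higher and 12.7% lower. In C24 clf against Col clf, 2 of 8 other lysine methyltransferases of the same families were called higher, with ATXR3, the main enzyme for trimethylation of lysine 4, at 7.08 and 9.55 RPKM (0.38, adjusted p = 0.00161). Of 3 COMPASS core subunits, which work with ATX1-type enzymes, RBL was called higher (0.22, adjusted p = 0.032; 0.084 and 0.258 under quantile normalization). Of 6 PAF1 complex subunits 2 were called higher, led by VIP4 (0.34, adjusted p = 0.00234), and of 9 SWI/SNF genes 2, led by the ATPase gene SYD, at 13.2 and 18.3 RPKM (0.44, adjusted p = 7.1e-04). None of these 26 genes was called lower. The medians of these lists were 0.14, 0.22, 0.088 and 0.12, beside 0.13 over all tested genes; under quantile normalization they became -0.011, 0.084, -0.035 and 0.0003, with 1, 0, 1 and 2 genes higher and 1, 0, 0 and 3 lower.

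Among the ULT1 and PKL paralogs, PKR1, the 1 of 3 that was tested, was called higher (0.27, adjusted p = 0.0133; 0.14 and 0.0965 under quantile normalization). Of 12 tested JmjC genes other than the 5 above, 2 were called higher and 1 lower. JMJ16, a lysine 4 demethylase, was at 5.60 and 7.87 RPKM (0.43, adjusted p = 0.00302), and JMJ20, an arginine demethylase known from seed germination, at 6.51 and 4.07 RPKM (-0.57, adjusted p = 1.46e-04). JMJ20 thus changed against the median, as ATX2 did, and in clf F1 it was at 4.37 RPKM. With the replicate number as a block 3 JmjC genes were higher and 1 lower, beside 6800 higher and 2744 lower of all 17819 tested genes. The median of the JmjC list was 0.082, and -0.061 under quantile normalization.

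Of 13 tested Polycomb genes 8 were called higher and 1 lower in C24 clf, with a median of 0.35; under quantile normalization 4 were higher and 2 lower, with a median of 0.19, and with the replicate number as a block 9 were higher and 1 lower. Over all 17819 tested genes the block gave 6800 higher and 2744 lower. MEA, 1 of the 8, passed the filter through C24 clf alone (1.02, 1.10 and 1.27 RPKM, against 0.08 to 0.53 in the other 6 libraries), so it had to be higher there and its call is no evidence. CLF led the rises (1.97, adjusted p = 2.18e-08), where the Col allele is an insertion, and VRN2, a subunit of the vernalization form of the complex, was called lower (-0.46, adjusted p = 0.00437). Of 10 clock genes, listed because JMJ30 follows the clock, TOC1 was called higher (0.36, adjusted p = 0.0072; 0.24 and 0.0561 under quantile normalization) and PRR9 lower (-0.34, adjusted p = 0.0322), with a median of 0.079 and, under quantile normalization, -0.054; with the replicate block 3 clock genes were higher and 1 lower.

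Of 12 known targets of these regulators 6 passed the filter, and of these 4 were called higher and 2 lower in C24 clf. AP3, 1 of the 4, was at 0.30 to 0.53 RPKM in Col clf and passed the filter through C24 clf and clf F1 alone, so the count is given as a description. FLC, the flowering repressor whose level is known to depend on several of the 10 genes, was at 10.37, 11.33 and 10.08 RPKM in Col clf, 130.98, 143.54 and 145.72 in C24 clf and 107.53, 96.58 and 97.09 in clf F1 (C24 clf against Col clf 3.61, adjusted p = 6.75e-12). SOC1, a floral integrator repressed by FLC, was at 40.3 ± 2.40 RPKM in Col clf, 9.28 ± 1.07 in C24 clf and 7.80 ± 0.76 in clf F1 (-2.01, adjusted p = 1.4e-08).

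In clf F1 against C24 clf the calls in these lists without the block were all lower: 5 of 8 methyltransferases, 2 of 3 COMPASS subunits, 2 of 6 PAF1 subunits, 5 of 9 SWI/SNF genes, 1 of 1 paralog, 2 of 12 JmjC genes, 7 of 13 Polycomb genes, 4 of 6 targets and 3 of 10 clock genes, beside 35.8% of all tested genes. Under quantile normalization 1 methyltransferase, 1 SWI/SNF gene, 4 Polycomb genes and 3 targets were lower, and 1 JmjC gene and 2 Polycomb genes higher. Over all 17819 tested genes 2397 were then lower and 2314 higher. MEA is among the 7 and the 4 Polycomb genes called lower. It passed the filter through C24 clf alone, so it had to be lower in clf F1 and its call is no evidence. With the replicate number as a block 6 SWI/SNF genes, 3 JmjC genes, 8 Polycomb genes, 5 targets and 5 clock genes were lower and 1 clock gene was higher. The counts of the other lists did not change. Over all 17819 tested genes the block gave 8167 lower and 1560 higher, so the background rose as well.

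Profiles most like those of the called genes were found by Pearson's r of log2(RPKM + 1) over the 9 libraries, which share the 3 groups. For ATX2 they were FLK (r = 0.987), an RNA-binding protein of the autonomous flowering pathway, and AGL31 (r = 0.985), a MADS-box gene of the FLC clade, with 518 tested genes above 0.9. For REF6 they were EMB140 (r = 0.989) and CYP705A27 (r = 0.987), with 981 genes above 0.9, and for PKL XRCC4 (r = 0.989), a DNA repair gene, and AT5G46070 (r = 0.987), with 775. So many genes exceed 0.9 that these profiles are those of the group means.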

How the data were processed

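The 10 genes, the gene lists and the tests were chosen with earlier results of these data known. mRNA values are RPKM as deposited, 1 file per library; the unit was read from the values, whose library sums ran from 728341 to 767004. The submitters' processing notes list TopHat, Bowtie and TAIR10 without versions; the sources used here do not give the counting program, its use of strand or any ChIP control. The peak lists give deposited tag counts per peak, and a score and a fold enrichment (ratio) from the authors' caller, per library and not pooled; no score was below 50.

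Of 34133 lines per mRNA file, 1141 lines of 567 repeated IDs were left out. The 17819 genes that reached 1 RPKM in 3 or more libraries were fitted as log2(RPKM + 1) with limma 3.58.1 in R 4.3.3 (trended prior, 1 coefficient per group, all 9 libraries), and an adjusted p below 0.05 was a call. The mid-parent is the arithmetic mean of the parents' fitted levels with a delta-method SE. Depth was estimated from 1-read steps in genes no longer than 400 bp; 67.2% to 76.5% of low values were whole within 4%, so whole reads were not recovered for nearly all genes and no count test was run. Tests were checked on simulated data in which libraries were independent, without the pairing by number. The planted changes were larger than any called among the 9 genes, so this check does not speak to calls of that size. A gene has a peak if at least 1 bp overlaps. Two-sided tests were used throughout. Genes named from the lists are, for each list, the called genes with the largest rise and fall in C24 clf against Col clf, plus CLF; others were named after their values were seen (ULT2, PKR2, JMJ15, JMJ18 and EMF1 for their peaks, and the root markers).

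The labels do not say that replicates are separate cultures, so the p-values speak only of the spread among these libraries, possibly a technical one. Deviations from the group means correlated at 0.169 to 0.426 between libraries with the same number (9 pairs) and at -0.275 to -0.002 between others (18 pairs), so the numbers pair the samples, and the fit with the number as a block is given where it changes a call or a count. No pair of libraries shared more than 0.971% identical values. The reference table gives no strand, so the alternative of 1000 bp upstream was replaced by 1000 bp on both sides.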

Additional observations from a re-analysis of the deposited data

How the results depend on the processing

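The number of the 9 tested genes called was recomputed under each alternative. For C24 clf against Col clf it was 3 and became 1 under quantile normalization and 1 without the 3 libraries richest in rRNA, and it ran from 1 to 4 on leaving out each library. For clf F1 against Col clf it was 0 in every alternative run. For clf F1 against C24 clf it was 4 and became 1 under quantile normalization (ATX2, higher), with 1 to 4 on leaving out each library. For clf F1 against the mid-parent it was 1 and became 0 with no filter, 0 under quantile normalization, 0 with no trend in the prior and 0 against the mean of the parents' log2 levels, with 0 to 2 on leaving out each library. Against C24 clf and the mid-parent, no count is given without the libraries richest in rRNA, since that fit keeps 1 clf F1 library. With the replicate number as a block the counts were 4, 0, 4 and 1, the addition being SDG8 in C24 clf against Col clf; the block changed no other call among the 9 genes. In the gene lists it also moved the mid-parent counts of lower calls, to 3 SWI/SNF, 3 JmjC and 5 clock genes from 0 each, to 1 of 1 paralog from 0, to 2 Polycomb genes from 1 and to 4 targets from 3; against Col clf it gave 2 lower JmjC genes in place of 1 and 1 lower clock gene in place of 0. Over all tested genes its calls for clf F1 against Col clf went from 888 higher and 1252 lower to 1363 and 2188. For the mid-parent they went from 66 higher and 1133 lower to 287 and 4185. The calls over all tested genes moved as well on leaving out each library. For C24 clf against Col clf they ran from 4263 to 5930 higher and 1825 to 2342 lower. For clf F1 against C24 clf they ran from 935 to 1142 higher and 3926 to 7421 lower. For the mid-parent they ran from 14 to 132 higher and 165 to 3245 lower. Mid-parent calls were 42 higher and 511 lower with no filter, over 24937 genes. Under quantile normalization they were 101 and 292. The cause of the losses was not tested, apart from the fewer libraries of some fits. Of 600 values of single genes under the alternatives, 543 kept their side of the threshold, 52 lost and 5 gained it, and 0 called values changed sign. The number of the 10 genes with a peak was 2 and became 1 where 50% of the gene had to be covered, 1 with a score of at least 100 and 1 without the 3 wild-type replicate 2 lists (chosen after seeing the data), each time ULT1; it ran from 1 to 2 on leaving out each wild-type list, and adding 1000 bp on both sides gave 3, with SDG8. The share of all genes with a peak was not counted under these alternative peak rules and lists. Depth limits JMJ30 and JMJ32 most, since a level near 1 RPKM rests on few reads and the +1 shrinks its differences.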

Other observations

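Across all 17819 tested genes, 1473 (8.27%) were highest in the library numbered 3 of every group and 893 (5.01%) lowest there. In 223 genes (1.25%) all 3 libraries numbered 3 lay above the other 6, as for ULT1. Genes called higher in them with limma, named after their values were seen, included ERD5 (1.28, adjusted p = 0.0419), a proline dehydrogenase gene, and DIN10 (0.50, adjusted p = 0.0086), a dark-inducible gene, while RD20, a drought-responsive gene, was lower (-0.82, adjusted p = 0.0224).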
